A study of Homo sapiens with 6 samples.

Results

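Matricellular proteins are secreted into the extracellular matrix, where they bind collagens, growth factors and cell surface receptors and modulate adhesion and signalling rather than building the scaffold itself. TGFBI (transforming growth factor beta induced) is a fasciclin-domain protein that binds collagens and integrins, and its gene is a classical target of TGF-beta. The genes described here are TGFBI and 9 further genes of this class: POSTN (periostin), SPARC, SPOCK1, SMOC1, the thrombospondins THBS1, THBS2 and THBS3, TNC (tenascin C) and SPP1 (osteopontin). They make up 10 of the 58174 genes of the table and were selected by symbol, with TGFBI chosen on a reported repression by the microRNA miR-21. The set was put together with the differences between the libraries known, so the differences of these 10 genes are given as a description, with no test.

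The 6 polyA RNA-seq libraries were made from A549, an established human cell line from a lung adenocarcinoma. In 3 libraries (Ctrl) the cells were the parental population, and in the other 3 (MIR21-KO) they carried a deletion of MIR21, the gene of the oncogenic microRNA miR-21. The locus was cut by Cas9 at a pair of sites, and MIR21-KO cells were grown from single sorted cells, so that clone-specific differences and the deletion cannot be told apart. The number of clones behind the 3 libraries is not stated, the labels name no further treatment, and all cells were harvested 48 h after seeding.

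Expression is given as FPKM, fragments scaled by the length of the gene and the size of the library, and total reads per library ran from 10631667 to 14345209. MIR21 itself was listed with 0 reads in all 6 libraries, Ctrl included, so it does not check the labels of these polyA libraries. A listed 0 is not always an absent RNA, since all 37 mitochondrial genes were listed at 0 as well. MIR21-KO libraries differed more among themselves than Ctrl libraries did, with a chi-square per degree of freedom of 7.70 to 32.8 between pairs (highest for replicates 1 and 3) against 2.69 to 5.30. The epithelial keratin genes KRT8 and KRT18 were highly expressed in all 6 libraries, at no less than 335.5 FPKM, and marker lists are given at the end.

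A microRNA recognises mRNAs mainly through its seed, bases 2 to 8, which pairs with complementary letters in the 3′ UTR. The mature miR-21-5p is encoded at chr17:59841273-59841294 (plus strand, GRCh38.p14, sequence from RefSeq) and is shown with the seed in capitals, because the UTRs of this gene set were searched for its complement.
hsa-miR-21-5p: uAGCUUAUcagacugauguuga

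The longest annotated 3′ UTR of each of the 10 genes (GENCODE 29, GRCh38) was searched on the sense strand for ATAAGCTA (8mer), ATAAGCT (7mer-m8), TAAGCTA (7mer-A1) and TAAGCT (6mer), each site being counted under its longest match. The best match of each gene with one is shown as 30 bases around it, 5′ to 3′ on the strand of the gene, with the matched letters in capitals. The order is from the longest match to the shortest.
TGFBI 8mer: atggcatcattATAAGCTAtgagttgaaat
SPOCK1 8mer: agtaccagtctATAAGCTActgtccgccac
THBS2 8mer: tagcaaatgacATAAGCTAccgattaacta
THBS1 7mer-m8: aaatcagtctaATAAGCTgctctgcccctt
SMOC1 7mer-A1: gcttccaggcttTAAGCTAattccagaagt
THBS3 7mer-A1: gaccctgaggtcTAAGCTAcagcccctcag

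These windows lie in exonic 3′ UTR at chr5:136063640-136063669 for TGFBI (plus strand), chr5:136977109-136977138 for SPOCK1 (minus), chr6:169217228-169217257 for THBS2 (minus), chr15:39596620-39596649 for THBS1 (plus), chr14:70031526-70031555 for SMOC1 (plus) and chr1:155195747-155195776 for THBS3 (minus). SPOCK1 and THBS1 each held a further 6mer. No match to these letters was found in the UTRs of POSTN (750 bases), SPARC (2475 bases), SPP1 (530 bases) and TNC (1579 bases). An 8mer was thus present in 3 of the 10 genes and in 2.47% of the 18917 genes with a 3′ UTR, and any of the 4 matches was present in 6 of 10 and in 24.9%. The UTRs searched were longer in this set, with a median of 1810.5 bases against 1117 bases over all genes, and the site in TGFBI is not independent of the choice of that gene. For comparison, the let-7 seed was searched in the same way: its 8mer CTACCTCA was found in 0 of the 10 genes and in 3.77% of all genes with a 3′ UTR, and any of its 4 matches in 4 of 10 and in 24.7%.

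TGFBI was by far the most abundant matricellular mRNA. Its level was 210.9, 201.5 and 211.1 FPKM in Ctrl replicates 1 to 3 and 924.0, 897.9 and 806.7 FPKM in MIR21-KO replicates 1 to 3. The groups did not overlap, and the lowest MIR21-KO library lay far above every Ctrl library. The means were 207.8 ± 5.50 FPKM and 876.2 ± 61.6 FPKM (SD, n = 3 each), a ratio of 4.22. On the log2(FPKM + 0.1) scale, on which the fold changes are given, the difference between MIR21-KO and Ctrl was 2.07 ± 0.092 (SE). Since these are bulk libraries, more cells expressing a gene and more RNA per cell cannot be told apart, here and for the other genes.

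By rank among the 19799 protein-coding genes, TGFBI stood at 135 to 157 in Ctrl libraries and at 19 to 27 in MIR21-KO libraries. It took 0.165% of all reads in Ctrl and 0.675% in MIR21-KO, with 16924 to 22552 reads per Ctrl library and 81720 to 98318 per MIR21-KO library. The summed level of the 10 genes was 265.9 ± 6.79 FPKM in Ctrl and 990.0 ± 52.1 FPKM in MIR21-KO (SD, n = 3 each), and TGFBI accounted for 78.2% ± 0.301 and 88.4% ± 1.61 of it. Without TGFBI, the other 9 genes summed to 58.1 ± 1.56 FPKM and 113.8 ± 9.56 FPKM. The large share of TGFBI thus grew further, although the remaining genes also had a higher sum in MIR21-KO.

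POSTN is the closest relative of TGFBI and a fasciclin-domain protein of fibroblast-rich stroma. Its mRNA was practically not detected, with 1 read in Ctrl replicate 3 and 0 reads in the other 5 libraries. With 3 reads as the limit that a count of 0 allows, POSTN could be present at up to 0.0403 to 0.0511 FPKM in those 5 libraries, counting error only, and no fold is given.

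**Figure D1:**
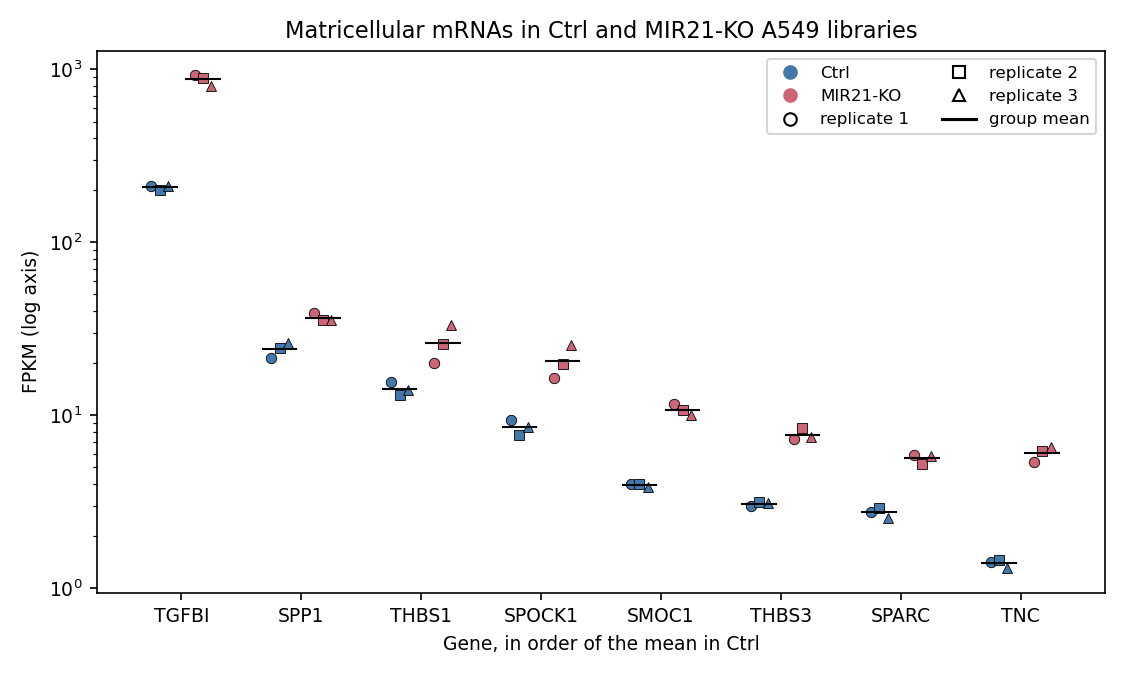
FPKM (log axis) of the 8 matricellular genes whose mean reached the filter of 0.5 FPKM, for Ctrl (blue) and MIR21-KO (red), with 1 symbol per library and a line at the group mean. For each of the 8 genes all 3 MIR21-KO libraries lie above all 3 Ctrl libraries, and TGFBI stands apart from the rest in both groups.

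The SPARC family comprises calcium-binding matrix proteins that share an extracellular domain. SPARC itself, also named osteonectin, binds collagens and reduces cell spreading. Its level was 2.76, 2.91 and 2.56 FPKM in Ctrl replicates 1 to 3 and 5.93, 5.22 and 5.84 FPKM in MIR21-KO replicates 1 to 3. All MIR21-KO libraries were about equally high and none overlapped with Ctrl. The means of 2.74 ± 0.175 FPKM and 5.66 ± 0.382 FPKM (SD, n = 3 each) gave a log2 fold change of 1.02 ± 0.105 (SE).

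SPOCK1 encodes testican-1, a proteoglycan of the same family. It was at 9.42, 7.70 and 8.60 FPKM in Ctrl replicates 1 to 3 and at 16.5, 19.8 and 25.7 FPKM in MIR21-KO replicates 1 to 3. The groups were separate, but the highest MIR21-KO library was 1.55 times the lowest. The means were 8.57 ± 0.862 FPKM and 20.7 ± 4.63 FPKM (SD, n = 3 each), with a log2 fold change of 1.24 ± 0.167 (SE).

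SMOC1, a modular calcium-binding protein known as an antagonist of BMP signalling, differed with less scatter. Its values were 4.03, 3.98 and 3.85 FPKM in Ctrl replicates 1 to 3 against 11.6, 10.8 and 9.99 FPKM in MIR21-KO replicates 1 to 3. Every MIR21-KO library was more than 2-fold above every Ctrl library. The means were 3.95 ± 0.0924 FPKM and 10.8 ± 0.803 FPKM (SD, n = 3 each), and the log2 fold change was 1.42 ± 0.088 (SE). A processed ribosomal pseudogene, RPL7AP6, lies in the opposite orientation within SMOC1 and was listed at 41.7 to 53.9 FPKM in Ctrl and 55.2 to 63.7 FPKM in MIR21-KO.

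Thrombospondins are multimeric glycoproteins that bind cells and other matrix proteins. THBS1, which activates latent TGF-beta and binds CD47 and CD36, was at 15.6, 13.1 and 14.004 FPKM in Ctrl replicates 1 to 3. In MIR21-KO replicates 1 to 3 it was at 20.005, 25.8 and 33.1 FPKM. The groups did not overlap, yet THBS1 was the most variable of the 8 genes above the filter in MIR21-KO, the highest library being 1.65 times the lowest. The means were 14.2 ± 1.29 FPKM and 26.3 ± 6.54 FPKM (SD, n = 3 each), and the log2 fold change was 0.86 ± 0.181 (SE).

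Of the 3 annotated genes that overlap THBS1, the antisense gene CTD.2033D15.3 was listed at 2.84, 2.12 and 2.50 FPKM in Ctrl and at 2.23, 2.48 and 7.33 FPKM in MIR21-KO. Its high value thus fell into the same library as that of THBS1, MIR21-KO replicate 3, with at most 50 reads in any library. As the strand setting of the counting is not stated, reads of this pair may not have been kept apart. The protein-coding gene FSIP1, on the opposite strand, was at 0.719 to 0.851 FPKM in Ctrl and 0.298 to 0.496 FPKM in MIR21-KO. CTD.2033D15.2, an intronic gene on the strand of THBS1, had at most 3 reads in a library.

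THBS3, a less studied thrombospondin, was at 2.99, 3.16 and 3.10 FPKM in Ctrl replicates 1 to 3 and at 7.29, 8.39 and 7.54 FPKM in MIR21-KO replicates 1 to 3. The libraries of each group lay close together and far from those of the other group. The means were 3.08 ± 0.0848 FPKM and 7.74 ± 0.580 FPKM (SD, n = 3 each), with a log2 fold change of 1.30 ± 0.094 (SE). The antisense gene RP11.263K19.4 covers most of THBS3 and was listed at 1.27, 0.905 and 1.10 FPKM in Ctrl and at 2.77, 2.32 and 2.66 FPKM in MIR21-KO. The libraries were strand-specific, but the same limit on counting applies to this pair. MTX1, which shares 353 bases with THBS3 on the opposite strand, was at 7.94 to 8.63 FPKM in Ctrl and 6.19 to 7.67 FPKM in MIR21-KO.

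THBS2, an inhibitor of angiogenesis made mainly by fibroblasts, was at the limit of detection. It had 0, 1 and 1 reads in Ctrl replicates 1 to 3 and 3, 1 and 7 reads in MIR21-KO replicates 1 to 3. At this depth no difference can be stated for THBS2, although its UTR holds an 8mer.

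TNC, a large glycoprotein that interferes with adhesion to fibronectin, was the lowest of the 8 detected genes in Ctrl. Its level was 1.42, 1.45 and 1.31 FPKM in Ctrl replicates 1 to 3 and 5.35, 6.18 and 6.54 FPKM in MIR21-KO replicates 1 to 3. The ratio of the group means, 4.33, was as large as that of TGFBI, with no miR-21 match found in its UTR. The means were 1.39 ± 0.0752 FPKM and 6.02 ± 0.610 FPKM (SD, n = 3 each), and the log2 fold change was 2.03 ± 0.122 (SE). DEC1, which overlaps TNC on the opposite strand, had at most 9 reads in a library.

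SPP1, an integrin and CD44 ligand, showed the smallest difference. It was at 21.5, 24.4 and 26.3 FPKM in Ctrl replicates 1 to 3 and at 38.9, 35.3 and 35.6 FPKM in MIR21-KO replicates 1 to 3. The groups remained separate. The means of 24.1 ± 2.42 FPKM and 36.6 ± 1.98 FPKM (SD, n = 3 each) gave a log2 fold change of 0.60 ± 0.095 (SE).

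Across all 16006 genes whose mean over the 6 libraries reached 0.5 FPKM, limma called 2568 genes (16.0%) at an FDR under 0.01, 1226 higher (7.66%) and 1342 lower (8.38%) in MIR21-KO. Of the 10 matricellular genes, 8 passed the filter, 7 of these lay past the limit with a higher level, 0 with a lower level, and THBS1 did not pass it. All 8 had MIR21-KO values above all Ctrl values, as did 22.8% of all genes tested, and 6 were at least 2-fold higher on the fitted scale, as were 7.12%. The median log2 fold change of the 8 genes was 1.27, against -0.02 over all genes tested. As the genes were selected on this contrast, nothing is read from these counts, and POSTN and THBS2 stay outside them.

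In Ctrl, the order of levels from high to low was TGFBI, SPP1, THBS1, SPOCK1, SMOC1, THBS3, SPARC and TNC, and no neighbours in this order overlapped between libraries. In MIR21-KO the order was the same except that TNC moved above SPARC. There the ranges of TNC and SPARC overlapped, and their order was not the same in every library. The ranges of THBS1 and SPOCK1 also overlapped, but THBS1 was the higher of this pair in each of the 3 libraries. Gene length matters for such an order: the table gives TGFBI 7810 bases, whereas its longest coding transcript in GENCODE 29 has 2804 bases. Per base of the longest coding transcript, TGFBI would be at 578.9 ± 15.3 FPKM in Ctrl and 2440.5 ± 171.6 FPKM in MIR21-KO (SD, n = 3 each), with the order of the 8 genes unchanged in both groups and SMOC1 and THBS3 also overlapping in MIR21-KO.

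The spread between libraries was compared with that expected from counting reads alone. In MIR21-KO the coefficient of variation exceeded the counting error for all 8 genes, and in Ctrl for 4 of 8. TGFBI varied by 2.65% in Ctrl and 7.03% in MIR21-KO, where counting alone would give 0.705% and 0.336%. THBS1 and SPOCK1 had the widest spread in MIR21-KO, at 24.9% and 22.4%, against counting errors of 1.79% and 2.45%. The highest library was not the same for all genes: MIR21-KO replicate 3 was the highest for SPOCK1, THBS1 and TNC and the lowest for TGFBI and SMOC1. For each of these genes MIR21-KO replicate 1 stood at the other end.

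**Figure D2:**
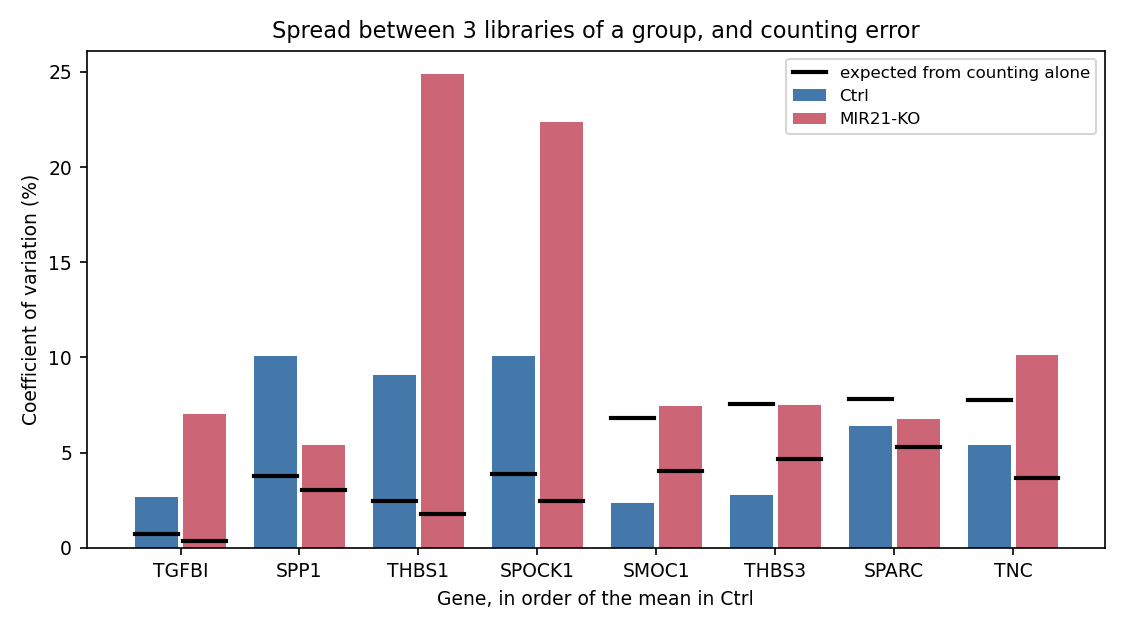
Coefficient of variation in percent over the 3 libraries of a group (bars, Ctrl blue, MIR21-KO red) and the value expected from counting reads alone (black lines), for the 8 genes in order of their Ctrl mean. THBS1 and SPOCK1 in MIR21-KO rise to 24.9% and 22.4%, whereas the Ctrl bars of SMOC1, THBS3, SPARC and TNC stay under their counting error.

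TGFBI and SPOCK1 both lie on chromosome 5 and are 911479 bases apart, TGFBI at chr5:136028895-136063818 (plus strand) and SPOCK1 at chr5:136975298-137598379 (minus strand), without an overlapping gene. Between them lies SMAD5, a transducer of BMP signals, which starts 69026 bases from TGFBI and was at 8.48 ± 0.910 FPKM in Ctrl and 6.93 ± 2.105 FPKM in MIR21-KO (SD, n = 3 each, limma adjusted p = 0.291). The nearest tested protein-coding gene on the other side of TGFBI, the histone variant gene H2AFY, was at 14.7 ± 0.342 FPKM and 12.4 ± 0.319 FPKM (limma adjusted p = 0.0327). Beyond SPOCK1, the RNA-binding protein gene HNRNPA0 was at 35.9 ± 0.616 FPKM and 32.7 ± 1.89 FPKM (limma adjusted p = 0.192). None of these 3 neighbours passed the FDR limit of 0.01, and each had the lower mean in MIR21-KO.

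Within 1 Mb of TGFBI and leaving out SPOCK1, 5 genes were tested, of which 1 was called higher and 0 lower, with a median log2 fold change of -0.22. Around SPOCK1, TGFBI left out, 0 of 16 tested genes were called higher and 3 lower by limma, with a median of -0.41. Around TNC, 1 of 9 genes was called, and around THBS3, with 61 tested genes, 4 were called higher and 2 lower. The genes called higher around THBS3 include RP11.263K19.4, the antisense gene that overlaps THBS3 and may share its reads. The medians around SPARC, SMOC1, THBS1 and SPP1 were 0.08, 0.03, 0.19 and 0.09. In the same order, 1 of 14, 2 of 19, 3 of 19 and 3 of 15 tested genes were called higher, and 0, 0, 2 and 1 lower. The highest neighbours of SPARC, THBS1 and SPP1 reached 1.82, 2.13 and 1.74, more than the named genes themselves. The neighbour at 1.74, FAM13A.AS1, was not called, but HERC3 (1.57) and NAP1L5 (1.41) were called and also exceeded SPP1.

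**Figure D3:**
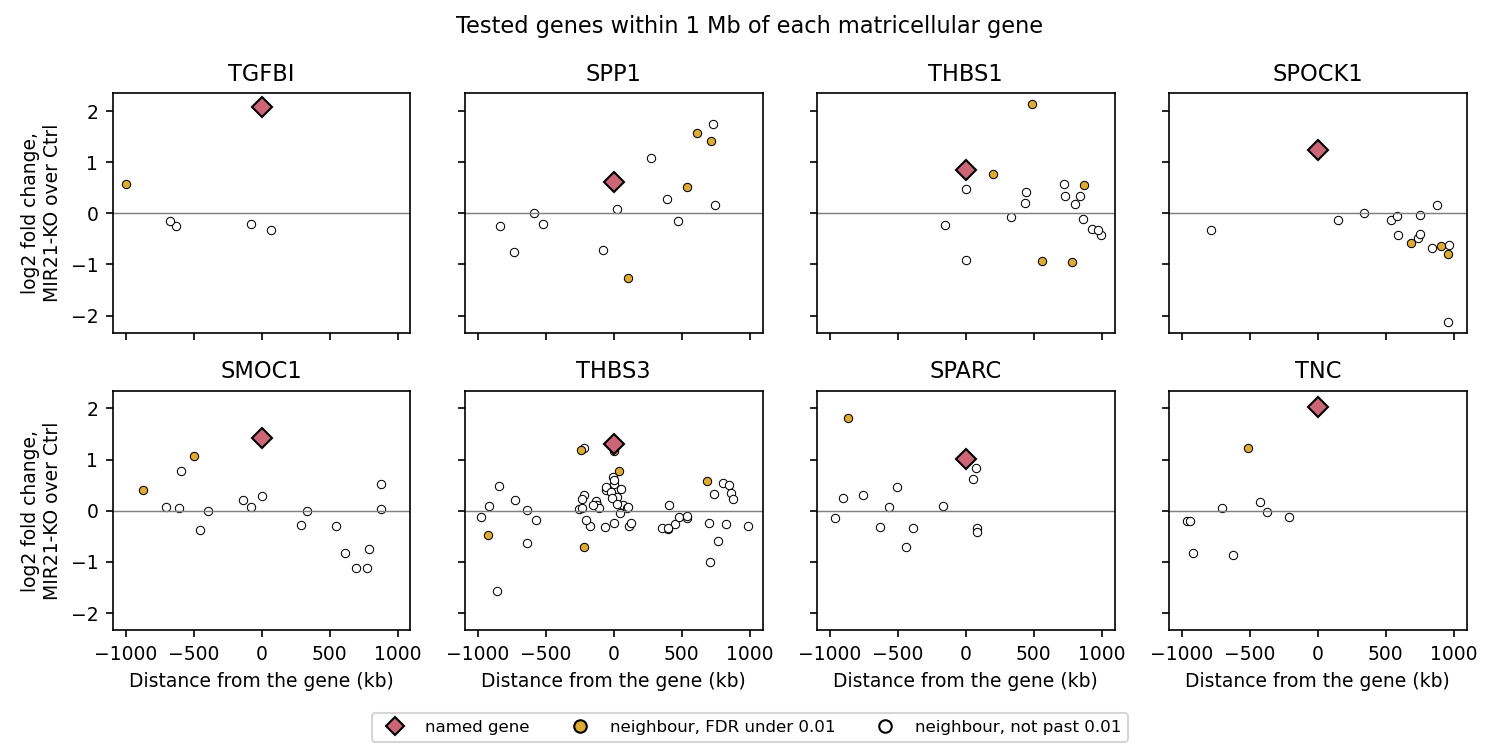
Log2 fold change of MIR21-KO over Ctrl for the genes tested within 1 Mb of each of the 8 matricellular genes (the 10 described genes left out as neighbours), against the distance in kb between gene ends (negative towards lower coordinates). The red diamond is the named gene, yellow points are neighbours past an FDR of 0.01 and white points are not. The highest neighbours of SPARC, THBS1 and SPP1 (1.82, 2.13 and 1.74) lie above the diamond, as do further neighbours of SPP1.

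Among 10807 protein-coding genes whose mean reached 1 FPKM, the pattern over the 6 libraries most like that of TGFBI was that of ARSI, a sulfatase gene, by Euclidean distance between centred log2 values (0.146). It was at 5.48 ± 0.239 FPKM in Ctrl and 24.2 ± 3.20 FPKM in MIR21-KO (SD, n = 3 each). The next were ZNF853 at a distance of 0.148, EBF4 at 0.179, BEGAIN at 0.198 and ADAM23 at 0.199. EBF4, BEGAIN and ADAM23 had Ctrl means of 0.806, 0.333 and 0.400 FPKM, with at most 40 reads in a Ctrl library. They reached the mean of 1 FPKM only through their MIR21-KO values, so their likeness to TGFBI was partly built in. Of the other matricellular genes TNC came closest, at rank 25 with a distance of 0.373, followed by SMOC1 at rank 168 and THBS3 at rank 247. SPP1 was the farthest, at rank 1146. The measure reflects the shared difference between the 2 groups first, since only 6 libraries enter it.

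The matricellular class has further members outside this set, among them the CCN proteins, which bind integrins and growth factors. Of 20 such genes only 5 passed the filter, and limma called 3 of them higher in MIR21-KO and 0 lower, with a median log2 fold change of 1.12 over the 5, against -0.02 over all genes. This list and the receptor, TGF-beta and matrix lists below were chosen with earlier results of these data known. Their counts and p-values are a description and not independent support for a direction. CCN4 (listed as WISP1), a Wnt-induced secreted protein, rose from 1.12 ± 0.0197 FPKM to 14.4 ± 2.64 FPKM (SD, n = 3 each, as for all means in these lists). Its log2 fold change was 3.56 ± 0.143 (SE), at a limma adjusted p of 4.18e-05. The follistatin-like protein FSTL1, a relative of SPARC, rose from 15.5 ± 0.183 FPKM to 41.0 ± 3.89 FPKM (log2 fold change 1.39, limma adjusted p = 0.000145). CCN2 (listed as CTGF), a well-known TGF-beta and YAP target, rose from 9.69 ± 0.127 FPKM to 21.1 ± 1.19 FPKM (log2 fold change 1.12, limma adjusted p = 0.00017). CCN1 and CCN5 did not pass, with log2 fold changes of 0.36 and 0.40, and 7 of the 20 genes were listed at 0 in every library. CCN1 had separate groups and narrowly missed the limit (limma adjusted p = 0.0126), whereas the groups of CCN5 overlapped (limma adjusted p = 0.238).

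Integrins, syndecans and LRP1 are among the receptors that bind matricellular proteins. Of 18 receptor genes 13 were tested, 5 of which were called higher and 0 lower, with a median log2 fold change of 0.42. ITGB3, the beta subunit that with ITGAV forms the vitronectin receptor, rose from 1.23 ± 0.105 FPKM to 14.9 ± 2.67 FPKM (log2 fold change 3.48, limma adjusted p = 4.93e-05). The endocytic receptor LRP1 rose from 3.59 ± 0.282 FPKM to 6.78 ± 1.13 FPKM (log2 fold change 0.89, limma adjusted p = 0.00466). ITGA3, a laminin receptor subunit, rose from 41.3 ± 1.13 FPKM to 60.3 ± 1.74 FPKM (log2 fold change 0.54, limma adjusted p = 0.00171), and ITGA5 and SDC4 were also called. ITGAV itself was at 31.4, 23.3 and 25.7 FPKM in Ctrl and at 27.1, 35.97 and 60.8 FPKM in MIR21-KO, so that its groups overlapped. The count of 5 receptor calls was not stable, as 1 gene was called after any single Ctrl library or MIR21-KO replicate 2 was left out, and 3 genes after leaving out MIR21-KO replicate 1.

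TGFBI was named for its induction by TGF-beta, a secreted factor that signals through receptor kinases to SMAD proteins. Of 18 TGF-beta ligand, receptor, SMAD and target genes 17 were tested, 7 being called higher and 2 lower, with a median log2 fold change of 0.43. TGFB1 and TGFBR2, both called higher, had been picked by the study on these libraries and are not independent evidence of a direction. LTBP1, which stores latent TGF-beta in the matrix, rose from 4.88 ± 0.455 FPKM to 26.3 ± 2.85 FPKM (log2 fold change 2.41, limma adjusted p = 5.72e-05). The ligand TGFB2 rose from 13.7 ± 0.979 FPKM to 28.5 ± 5.82 FPKM (log2 fold change 1.03, limma adjusted p = 0.00312).

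In the other direction, the co-receptor TGFBR3 fell from 2.16 ± 0.410 FPKM to 0.929 ± 0.216 FPKM (log2 fold change -1.14, limma adjusted p = 0.0094). The inhibitory SMAD6 fell from 12.8 ± 0.0691 FPKM to 6.71 ± 0.898 FPKM (log2 fold change -0.94, limma adjusted p = 0.00144). SMAD7, also inhibitory, was instead called higher (log2 fold change 0.89, limma adjusted p = 0.00101). The 8 genes that did not pass included SMAD2, SMAD3 and SMAD4, which carry the signal to the nucleus, with log2 fold changes of 0.45, 0.01 and -0.11. SMAD2 had separate groups and narrowly missed the limit (limma adjusted p = 0.011), as did SKI (log2 fold change 0.43, limma adjusted p = 0.0103). TGFBR1 and SKIL, at 0.40 and 0.27, and the target genes ID1 and TGIF1, at -0.02 and -0.04, did not pass either. In place of 9 genes, 5 were called when Ctrl replicate 1, Ctrl replicate 3 or MIR21-KO replicate 2 was left out, all 5 higher, so that neither TGFBR3 nor SMAD6 was then past the limit.

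Matricellular proteins act on the fibrous and adhesive matrix, and 16 of 20 genes of such matrix partners and crosslinking enzymes were tested. Of these, 11 were called higher and 0 lower, with a median log2 fold change of 0.96. FN1, the gene of fibronectin, rose from 20.1 ± 2.93 FPKM to 195.7 ± 36.5 FPKM (log2 fold change 3.27, limma adjusted p = 7.68e-05). The basement membrane collagen COL4A1 rose from 27.2 ± 2.11 FPKM to 122.8 ± 21.5 FPKM (log2 fold change 2.16, limma adjusted p = 0.000185). VTN, the gene of the integrin ligand vitronectin, rose from 4.35 ± 0.754 FPKM to 13.4 ± 3.01 FPKM (log2 fold change 1.59, limma adjusted p = 0.00192). The 5 that did not pass were COL1A1, COL12A1, LAMA5, LAMC1 and HSPG2, with log2 fold changes from -0.80 for COL12A1 to 0.18 for COL1A1. All MIR21-KO values lay above all Ctrl values for 12 of the 16 genes and below them for 2. These 2 were COL12A1 and LAMC1 (limma adjusted p = 0.0453 and 0.0684). Without Ctrl replicate 1, 7 genes were called, and leaving out MIR21-KO replicate 2 gave 6.

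**Figure D4:**
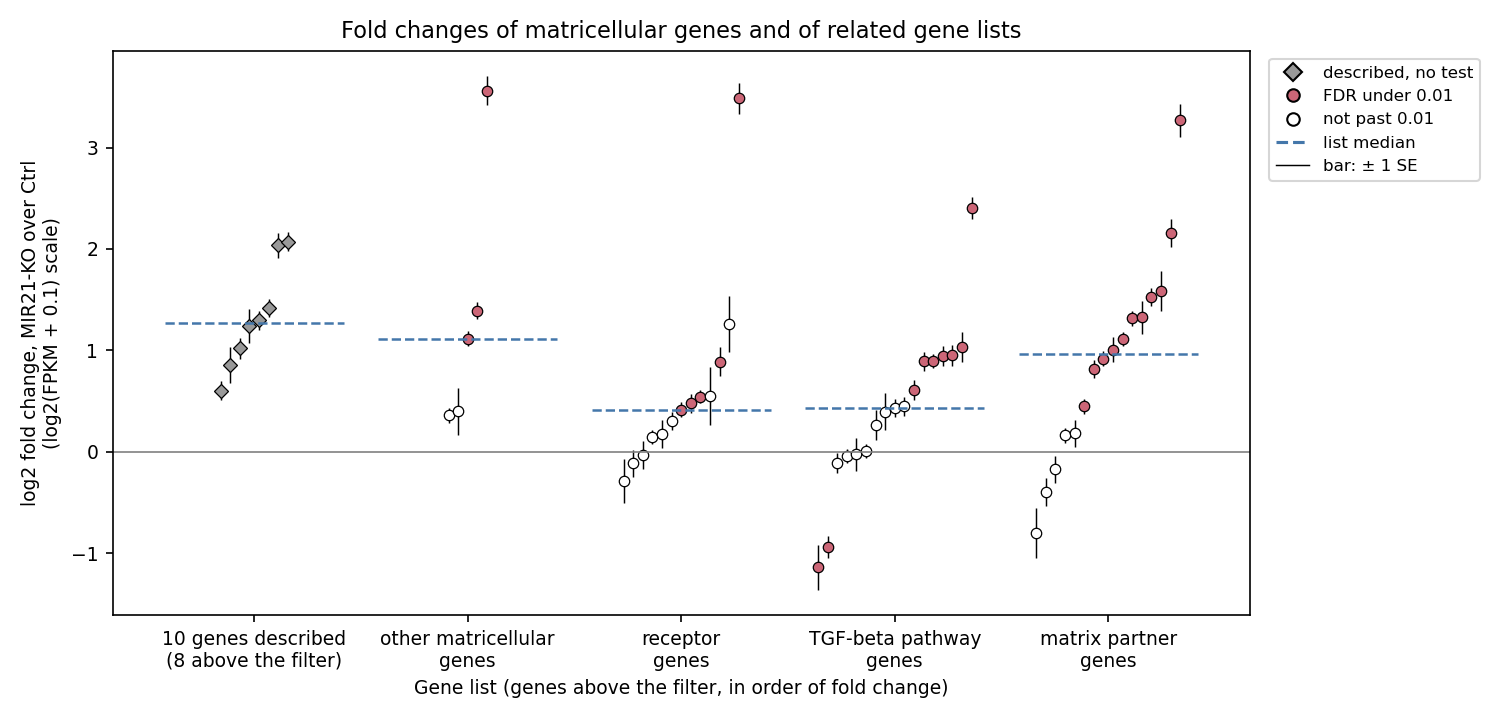
Log2 fold change of MIR21-KO over Ctrl (log2(FPKM + 0.1) scale) with bars of 1 SE for the genes above the filter in each list, and the list median as a dashed line. All lists were chosen with earlier results of these data known. Grey diamonds are the 8 matricellular genes, given with no test; red circles passed an FDR of 0.01 in limma and white ones did not, with CCN4 (3.56), ITGB3 (3.48) and FN1 (3.27) at the top of their lists.

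Marker genes of other cell types were read in the same libraries, as several matricellular proteins are typical of stromal cells. The summed level of the 9 fibroblast markers was 7.74 to 8.43 FPKM in Ctrl and 14.1 to 14.3 FPKM in MIR21-KO. Of the 3 fibroblast markers tested, THY1 was called higher (limma adjusted p = 0.00059), from 2.28 ± 0.212 FPKM to 7.15 ± 1.16 FPKM, while COL1A1 and LUM did not pass. Of the 6 below the filter, FAP had 0 reads in each Ctrl library and 41, 40 and 55 reads in MIR21-KO replicates 1 to 3, and COL3A1 had 5, 14 and 8 reads against 55, 45 and 56. PDGFRB was also separate and higher, with 1 to 3 reads against 8 to 15, whereas PDGFRA and DCN overlapped between groups and COL1A2 had 0 reads in every library. The 5 endothelial markers summed to 0.0490 to 0.0855 FPKM in Ctrl and 0.0969 to 0.154 FPKM in MIR21-KO. The 5 leukocyte markers summed to 3.32 to 3.80 FPKM and 3.33 to 5.38 FPKM, with CD3E at 0. Of the 5 epithelial markers, which summed to 1194 to 1288 FPKM in Ctrl and 776 to 1106 FPKM in MIR21-KO, CDH1, the gene of E-cadherin, fell from 8.18 ± 0.584 FPKM to 2.86 ± 0.148 FPKM (limma adjusted p = 0.000175). KRT18 was at 673.4 ± 25.3 FPKM in Ctrl and 422.1 ± 82.2 FPKM in MIR21-KO, with separate groups but not past the limit (limma adjusted p = 0.0153), and KRT8 was at 483.8 ± 22.3 FPKM and 414.2 ± 61.3 FPKM, with overlapping groups. EPCAM and KRT19 overlapped as well. The part of these marker changes in the levels of the matricellular genes was not tested.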

How the data were processed

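The polyA RNA-seq libraries of 3 Ctrl and 3 MIR21-KO A549 samples were grouped by title. The authors deposited 1 table of 58174 genes with gene lengths, FPKM per library, and columns of their own group comparison (log2 ratio, p-value, FDR). These columns were not used. The submitters' processing notes name cutadapt 1.14, HISAT2 2.1.0, SAMtools 1.5, featureCounts 1.5.3, edgeR 3.18.1 and hg38; annotation release and strand setting are not given in the sources used here.

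FPKM times gene length gave whole reads (tolerance 0.1 read) for 100% of values. A single read on 1 kb was worth 0.0731 to 0.0930 FPKM. Library sizes implied by the FPKM values were 0.9497 to 1.0304 times the recovered totals, which shows that the authors had rescaled them.

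Genes whose mean reached 0.5 FPKM were fitted in R 4.3.3 by limma 3.58.1, on the log2(FPKM + 0.1) scale (eBayes with trend and robust fitting, two-sided, Benjamini-Hochberg adjustment over all genes tested, calls at an FDR under 0.01). The fit was tested on simulated data. The study calls its samples independent, but neither it nor the labels say whether they were separate cultures or clones; p-values measure only the spread between these samples. The pseudocount understates fold changes of low genes.

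The members and gene lists were chosen with earlier results of these data known. Named were the 10 genes, up to 3 called genes per direction and list with the largest change, the 5 genes most like TGFBI, genes overlapping a member and the nearest tested protein-coding genes beside TGFBI and SPOCK1. KRT8, KRT18, ITGAV, SMAD7, HERC3, NAP1L5 and FAM13A.AS1 were picked after their values were seen. Fibroblast markers below the filter and genes named as not called were picked in the same way. Some genes of the lists are not reported here by name.

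GENCODE 29 matched 57836 genes (99.42%) by identifier, and 3′ UTRs of at least 30 bases were searched. Protein sequences were not analysed here. Alternatives were an FDR of 0.05, other filters, a pseudocount of 1, other scalings, voom on recovered reads, limma without trend and robust fitting, a replicate block and leaving out each library. Python 3.11.15 and matplotlib 3.10.9 were used.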

Additional observations from a re-analysis of the deposited data

How the results depend on the processing

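Fold changes of the 8 matricellular genes kept their direction under all 14 alternatives, and 108 of 112 values stayed within the spread between replicates. The other 4 came from a pseudocount of 1 FPKM, with log2 fold changes of 0.83 for SPARC, 1.25 for SMOC1, 1.10 for THBS3 and 1.55 for TNC. Other filters, limma without trend and robust fitting and a replicate block leave these fold changes unchanged by construction. As all 8 genes had separate groups, leaving out 1 library could not reverse a direction either. The range for TGFBI was 2.03 to 2.13. Calls across the table were 5114 at an FDR of 0.05 and 768 to 3400 when 1 library was left out, namely 895, 922 and 873 without Ctrl replicates 1, 2 and 3 and 768 without MIR21-KO replicate 2. Of the 10 matricellular genes 5 to 8 lay past the limit with 1 library left out: SPOCK1 and SPP1 were lost without any Ctrl replicate or MIR21-KO replicate 2, and THBS1 was gained without MIR21-KO replicate 1. Receptor calls numbered 2 without a filter on low values, 3 without trend and robust fitting, and 1 to 5 with 1 library left out. TGF-beta pathway calls ranged from 5 to 9 and matrix partner calls from 6 to 13 in the same way. Of the 13 matrix partner calls, made without MIR21-KO replicate 3, 11 were higher in MIR21-KO. The 3 calls among other matricellular genes held in number under every alternative except an FDR of 0.05, which gave 4. Same-numbered libraries did not deviate together (r of -0.17, -0.02 and -0.02), and were not treated as pairs. With a replicate block, 651 genes were called across the table, 4 matricellular, 1 receptor and 3 TGF-beta pathway genes; with 3 libraries per group such a fit leaves fewer degrees of freedom. Depth limits POSTN and THBS2, for which no difference was detectable. Causes of these changes were not tested.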
